A study of Mus musculus with 6 samples.

Results

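The genes described here are the immediate early response genes Ier2, Ier3 and Ier5 and the growth arrest and DNA damage-inducible genes Gadd45a, Gadd45b and Gadd45g, followed in cultured mouse dermal fibroblasts during the first 4 h with interleukin-1 (IL-1). They were chosen by name: every non-control probe whose gene name in the scanner files is 1 of these 6 was taken. This gave 8 probes, 2 each for Ier2 and Gadd45b and 1 for each of the others, among 41174 probes on the array. All 8 passed the filter on dim spots and had no missing value, as did 30583 probes in all, and the 6 genes stand among 22213 measured genes. Cells of C57BL/6 mice were kept in medium with serum and given IL-1 at 20 ng/ml, for 1, 2 or 4 h, and the untreated cells (0 h) were the control. No untreated cells of 1, 2 or 4 h were measured, so an effect of IL-1 cannot be told apart from one of handling or time in culture. Each of the 6 arrays was hybridised with RNA of treated cells in 1 dye and RNA of untreated cells in the other. Each time point was measured on 2 arrays with the dyes exchanged, so it counts as 1 sample. The labels do not say which form of IL-1 was used, how many mice or cultures stood behind an RNA, or whether 1 untreated extract served all arrays.

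Both gene groups encode small proteins made quickly after growth factors, cytokines or damage. Ier3, also called IEX-1 or gly96, is a target of NF-kB that modulates cell death and survival, Ier2 is a short-lived nuclear protein first found in serum-stimulated cells, and Ier5 is a regulator of heat shock factor HSF1. The 3 Gadd45 proteins bind the kinase MEKK4 (Map3k4), the replication clamp PCNA, the inhibitor p21 (Cdkn1a) and the mitotic kinase Cdk1, and thereby link stress to the JNK and p38 MAP kinases and to cell cycle arrest. Gadd45a is a classic p53 target, Gadd45b (MyD118) is induced through NF-kB and restrains JNK signalling by binding MKK7 (Map2k7), and Gadd45g (CR6) is a cytokine-responsive relative.

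RefSeq promoter windows of GRCm38.p6 were available for 5 of the 6 genes, and the windows of 3 are printed because these genes gave the largest ratios in either direction. Each line holds the 250 bases before the annotated start, 5′ to 3′ on the gene's strand, and capitals mark the motif matches named after the lines.
Ier3, chr17:35821463-35821712 (+ strand): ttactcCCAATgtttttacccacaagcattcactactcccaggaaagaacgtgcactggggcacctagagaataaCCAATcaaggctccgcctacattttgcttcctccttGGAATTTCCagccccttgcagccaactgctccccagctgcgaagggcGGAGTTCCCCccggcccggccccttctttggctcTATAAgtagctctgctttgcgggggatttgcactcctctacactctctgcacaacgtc
Gadd45b, chr10:80929841-80930090 (+ strand): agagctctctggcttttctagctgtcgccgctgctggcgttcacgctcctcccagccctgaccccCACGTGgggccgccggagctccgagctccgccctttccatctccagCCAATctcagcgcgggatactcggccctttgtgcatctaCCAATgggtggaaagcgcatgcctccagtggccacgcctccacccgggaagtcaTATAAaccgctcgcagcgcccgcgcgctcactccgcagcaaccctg
Gadd45g, chr13:51846425-51846674 (+ strand): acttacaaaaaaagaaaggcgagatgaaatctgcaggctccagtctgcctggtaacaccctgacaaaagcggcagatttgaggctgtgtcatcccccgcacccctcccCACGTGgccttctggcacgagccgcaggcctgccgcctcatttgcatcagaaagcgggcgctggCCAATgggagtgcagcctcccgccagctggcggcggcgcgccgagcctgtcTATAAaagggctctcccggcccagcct
Motifs were searched on both strands in the 250 bases before each of 32851 annotated starts. The NF-kB core GGANNTTCC, a motif added after these sequences were seen, was found in 3.59% of all windows, and in Ier3 it lies 139 to 131 bases before the start (GGAATTTCC). The looser 10-letter NF-kB consensus was found in 7.25% of windows, and in Ier3 it lies 92 to 83 bases before the start (printed as GGAGTTCCCC, with the match on the opposite strand). Neither was found in the windows of Gadd45a, Gadd45b, Gadd45g or Ier5, which says only that these letters are not there. Gadd45b and Gadd45g shared an E-box (CACGTG, 6.02% of windows), and the windows of Ier3, Gadd45b and Gadd45g each held CCAAT (33.8% of windows) and TATAA (22.8%). The AP-1 motif TGANTCA, the cAMP response motif TGACGTCA and the CArG box bound by serum response factor, found in 6.75%, 1.55% and 1.47% of windows, were not found in any of the 5 windows.

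The measure is the log2 ratio of treated to untreated signal, given for each array and as the mean of both dye orientations. The median distance of an orientation from that mean was 0.062 over all kept probes and times, and its 95th percentile was 0.197. This distance was taken as technical, because the names of the 2 arrays of a time differ only in the dyes. Whether both carried the same RNAs is not shown by these names. All 8 member probes were well above background in both channels on all 6 arrays, and 0 spots were saturated. Fibroblast markers checked the label, with 10 of 10 well above background in the untreated channel of all 6 arrays. Of the other lists, 1 of 6 keratinocyte, 0 of 6 leukocyte, 1 of 5 endothelial and 2 of 5 melanocyte markers were so on 0 arrays. The flag is permissive, since up to 14.3% of the 314 negative control spots carried it on an array. It was carried on all 6 arrays by 5 of 6 keratinocyte, 5 of 6 leukocyte, 2 of 5 endothelial and 1 of 5 melanocyte markers in the untreated channel, so a minority of other cells was not tested. Median untreated processed signals were 70295 for the fibroblast, 476 for the keratinocyte and 491 for the leukocyte markers. Krt10 at 3078.68, Krt5 at 1507.38, Cd14 at 1559.37 and Csf1r at 1207.36 lay above the lowest fibroblast marker, Lum at 1083.23. In bulk RNA, a change in the number of cells of a type and a change in RNA per cell cannot be told apart.

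Ier3 stood above the untreated level on all 6 arrays, most at 1 h and least at 4 h. Its log2 ratios were 1.94 and 1.75 at 1 h, then 1.39 and 1.28 at 2 h, then 1.18 and 1.04 at 4 h, the array with treated RNA in Cy5 first. The ranges of the 3 times did not overlap. Averaged over orientations, Ier3 mRNA was 3.60-fold, 2.52-fold and 2.15-fold the untreated level at 1, 2 and 4 h, the 18th, 29th and 33rd highest ratio among all kept probes. The signals of the scanner software, already corrected for background and dye, gave the same picture on the level scale. At 1 h the treated channel read 25460.5 and 20879.9, against 6249.23 and 5751.5 in the untreated channel of the same arrays. By 4 h it read 15808.2 and 12671.9 in treated cells, against 6783.14 and 5770.29 in untreated cells. The mean response over the 3 times, tested against 0, was 1.43 ± 0.12 (SE, n = 3, limma adjusted p = 0.00152), and Ier3 rose. The ratio declined by 0.37 per doubling of time (slope -0.37 ± 0.042, SE, n = 3, limma adjusted p = 0.0252). The slope call ended without replicate 2, the array set with treated RNA in Cy3 (slope -0.38, limma adjusted p = 0.147), and with other corrections listed at the end.

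**Figure D1:**
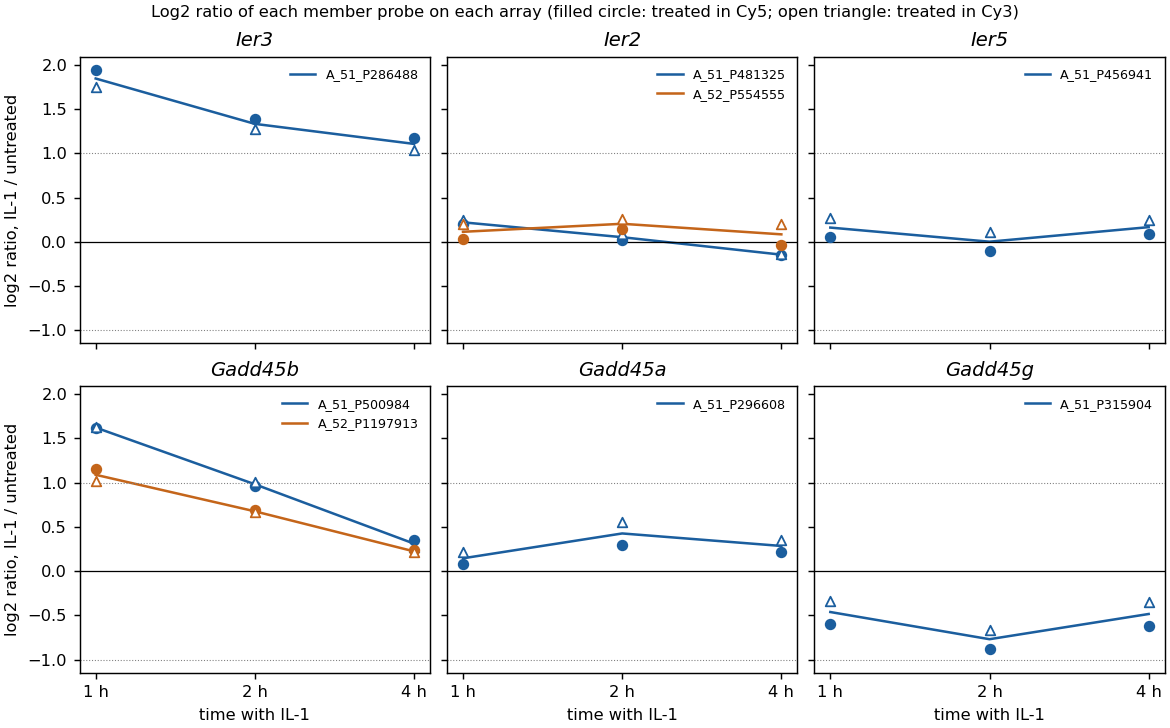
Log2 ratio of IL-1-treated over untreated RNA (vertical axis) at 1, 2 and 4 h (horizontal axis) for all 8 probes of the 6 genes; filled circles are arrays with treated RNA in Cy5, open triangles those in Cy3, lines join the means, and dotted lines mark a 2-fold difference. Ier3 and Gadd45b start high and decline, Gadd45g lies below 0 on all 6 arrays, and Gadd45a, Ier2 and Ier5 stay within 2-fold of the untreated level.

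Gadd45b rose almost as much at 1 h but lost nearly all of the difference by 4 h. Its brighter probe (A_51_P500984) gave log2 ratios of 1.62 and 1.63 at 1 h, then 0.96 and 1.01 at 2 h, then 0.35 and 0.27 at 4 h. Both orientations lay within 0.041 of their mean at each time, and the times did not overlap. In folds this was 3.08 at 1 h, 1.98 at 2 h and 1.24 at 4 h. The processed signal in treated cells was 23048.2 and 20506.3 at 1 h, against 7187.69 and 6181.1 in untreated cells. At 4 h it was 9695.75 and 8116.04 in treated cells, against 7596.7 and 6480.6 in untreated cells. The second probe (A_52_P1197913), which the files place 523 bases from the first on chromosome 10 in a build they do not name, showed the same order with smaller ratios. It read 1.16 and 1.02 at 1 h, then 0.69 and 0.66 at 2 h, then 0.24 and 0.21 at 4 h. The brighter probe exceeded it on every array, by 0.46 and 0.61 at 1 h and by 0.12 and 0.059 at 4 h, so the size of the early rise depends on the probe.

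The slope of Gadd45b was the steepest among the members, at -0.66 ± 0.028 per doubling of time (SE, n = 3, limma adjusted p = 0.000823). Its second probe declined by 0.43 per doubling (limma adjusted p = 0.00383). Both slope calls ended with the scanner's processed signals (limma adjusted p = 0.533). Between 1 h and 4 h the brighter probe differed by 1.31, the only member probe to exceed 2-fold between these times within both orientations, and the second by 0.87. In that comparison 0.0687% of all kept probes were at least 2-fold higher at 1 h. For Ier3 the difference was 0.74. Averaged over time, Gadd45b rose by 0.97 ± 0.21 (SE, n = 3, limma adjusted p = 0.0232) and its second probe by 0.66 (limma adjusted p = 0.0214). Both calls ended without the 2 h sample (limma adjusted p of 0.107 and 0.103), with an offset of 16 (0.0561 and 0.0528) and with the scanner's processed signals (0.107 and 0.101). The sizes were close to those above in each case, and the brighter probe's mean was 0.65 without the 1 h sample.

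**Figure D2:**
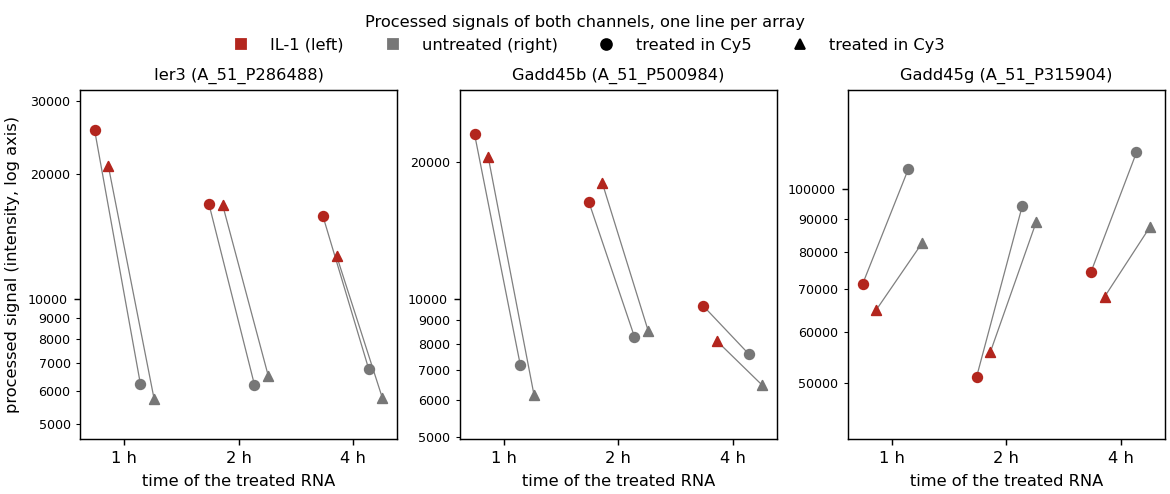
Processed signals in intensity units on a log axis for Ier3, Gadd45b and Gadd45g at each time of the treated RNA; each line joins the treated (red, left) and untreated (grey, right) channel of 1 array, and circles and triangles are treated RNA in Cy5 and Cy3. Treated signals of Ier3 span 12671.9 to 25460.5 and lie above all untreated ones, those of Gadd45g span 51080.6 to 74249.2 and lie below all untreated ones, and treated Gadd45b comes close to its untreated level at 4 h.

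Gadd45g went the opposite way and was lower in treated cells on all 6 arrays. Its log2 ratios were -0.59 and -0.33 at 1 h, then -0.88 and -0.66 at 2 h, then -0.62 and -0.35 at 4 h. The 1 h and 4 h values overlapped, and those of 2 h lay below both. The level was 0.726-fold the untreated one at 1 h, 0.587-fold at 2 h and 0.715-fold at 4 h. At 2 h the processed signal was 51080.6 and 55787.5 in treated cells, against 94345.9 and 88838.5 in untreated cells. On the arrays of all times, treated signals ran from 51080.6 to 74249.2, below the untreated range of 82419.4 to 114266. Ordered from the highest ratio, the probe ranked 30528th, 30577th and 30517th of 30583 kept probes at 1, 2 and 4 h, and at 2 h only 6 probes were lower. Its mean response was -0.57 ± 0.060 (SE, n = 3, limma adjusted p = 0.00243), and Gadd45g fell. At no time did it reach 2-fold in both orientations, and its slope did not pass (-0.011, 95% interval -0.18 to 0.16, limma adjusted p = 0.975). The array with treated RNA in Cy5 gave the lower ratio at each time.

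Gadd45a rose slightly, with its highest ratios at 2 h. The log2 ratios were 0.080 and 0.21 at 1 h, then 0.30 and 0.55 at 2 h, then 0.22 and 0.35 at 4 h. The 2 h and 4 h values overlapped, and in each orientation 1 h was lowest. Processed signals were 3334.02 and 4163.65 in treated cells at 2 h, against 2661.86 and 2566.38 in untreated cells. As a mean over orientations the ratio amounted to 1.11-fold, 1.34-fold and 1.22-fold at 1, 2 and 4 h. Its mean response of 0.29 ± 0.051 passed the threshold (SE, n = 3, limma adjusted p = 0.0117). The call ended without the 2 h sample (0.22, limma adjusted p = 0.0521) and with the scanner's processed signals (0.35, limma adjusted p = 0.0714). The slope was 0.070 per doubling of time (95% interval -0.058 to 0.20) and did not pass (limma adjusted p = 0.729).

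The other Ier genes moved little. Ier5 had log2 ratios of 0.057 and 0.27 at 1 h, then -0.10 and 0.11 at 2 h, then 0.090 and 0.24 at 4 h, with the treated RNA in Cy3 higher each time. Its mean response was 0.11 (95% interval 0.019 to 0.20) and did not pass after adjustment (limma adjusted p = 0.0878). With replicate number kept as a block over all 6 arrays the same mean passed (limma adjusted p = 0.0306), in a fit that treats the 2 arrays of a time point as separate samples. It also passed without replicate 1, where the mean was 0.21 (limma adjusted p = 0.0115), while without replicate 2 the mean was 0.014 (limma adjusted p = 0.812). With median centring in place of the intensity-dependent correction it turned to -0.064, so its direction depended on the scaling.

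Ier2 was read by 2 probes that differed. The brighter one (A_51_P481325) gave 0.20 and 0.24 at 1 h, then 0.016 and 0.090 at 2 h, then -0.15 and -0.14 at 4 h. These values did not overlap between times, and they passed from above to below the untreated level. Their slope of -0.18 ± 0.028 per doubling of time missed the threshold (SE, n = 3, limma adjusted p = 0.0610) and passed with the replicate block (limma adjusted p = 0.0139), with no background correction (0.00502) and with median centring (0.0236). The mean response was 0.043 (95% interval -0.11 to 0.20, limma adjusted p = 0.690). The dimmer probe (A_52_P554555) gave 0.030 and 0.20 at 1 h, then 0.15 and 0.26 at 2 h, then -0.032 and 0.20 at 4 h. Its processed signals were 234.527 to 417.279 in treated cells and 220.348 to 278.443 in untreated cells, and its mean of 0.13 passed (limma adjusted p = 0.0240). That mean grew to 0.42 with the scanner's processed signals and was then past the threshold no longer (limma adjusted p = 0.0659). It was 0.049 without replicate 2 and 0.10 without the 2 h sample, and passed in neither case (limma adjusted p = 0.368 and 0.152).

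**Figure D3:**
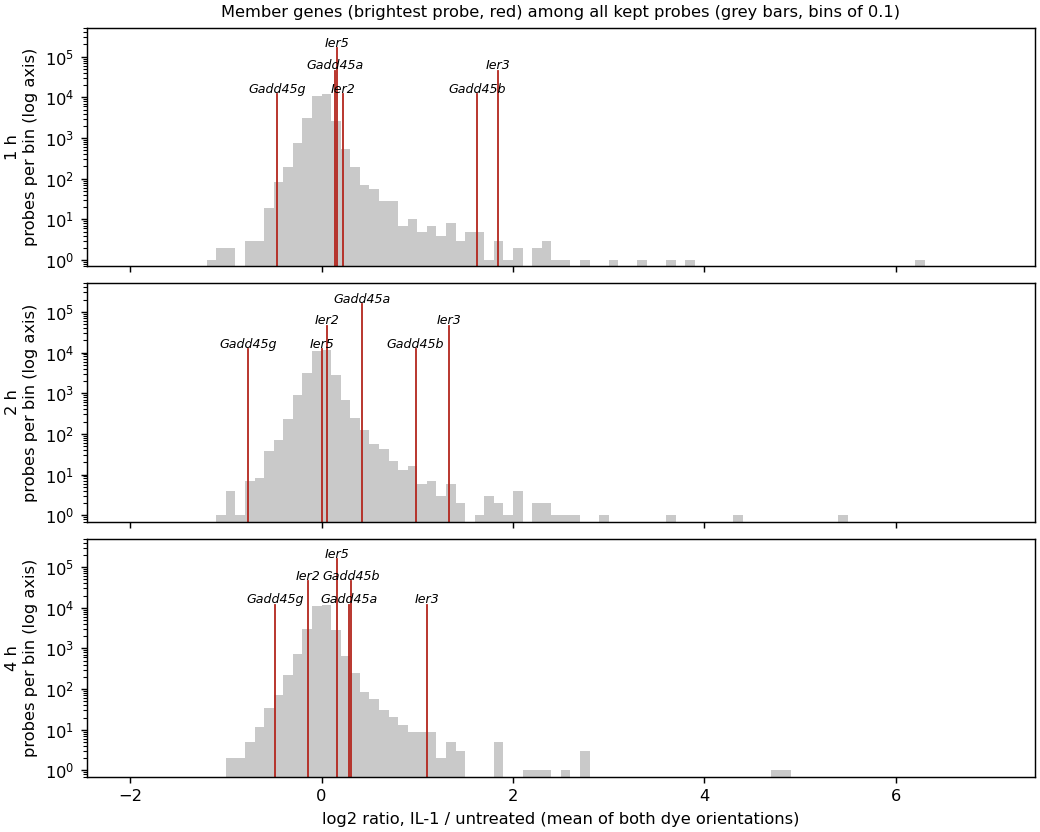
Number of kept probes (log axis) in bins of 0.1 of the log2 ratio of treated over untreated at 1, 2 and 4 h, with the brightest probe of each gene as a red line whose height carries no meaning. Ier3 stays in the upper tail at all times, Gadd45b stands at 1.62 at 1 h and at 0.31 at 4 h, and Gadd45g stays in the lower tail.

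By size, 3 of the 8 member probes were at least 2-fold higher in both orientations at 1 h (Ier3 and both Gadd45b probes), where 0.17% of all kept probes were. At 2 h and at 4 h the count was 1 (Ier3), against 0.134% and 0.111% of kept probes. None of the 8 was at least 2-fold lower at 1, 2 or 4 h, as were 0.00654% of kept probes at 1 h and 0% at 2 h and 4 h. With 1 sample at each time there is no test of these counts. The second Gadd45b probe was near the limit, at 1.02 in its lower orientation, and with no background correction it stood at 0.97 there. Ier3 at 4 h, at 1.04 in its lower orientation, stood at 0.99 without that correction. With median centring none of the 8 passed at any time, as the lower orientation of Ier3 was then 0.83, 0.38 and 0.28 at 1, 2 and 4 h. In the mean response, 5 of 8 probes rose and 1 fell, where 10.5% of all kept probes rose and 11.4% fell. Rises made up 48.1% of these calls, and 18.4% with median centring (1681 rises and 7453 falls). Of the 6 genes by their brightest probe, 3 rose, 1 fell and 2 did not pass. Declining slopes passed for 3 of 8 probes, where 0.242% of all kept probes had one, and 0 of 8 had a rising slope, where 0.196% had one. With the replicate block 184 declining and 164 rising slopes passed over all probes, against 74 and 60 without it.

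Genes whose 3 ratios lay nearest to those of a member were sought among 13287 genes with a RefSeq symbol, by Euclidean distance over the 3 time points. Nearest to Gadd45b were the cytokine signalling inhibitor Cish (distance 0.24), the chemokine Cxcl2 (0.26) and the feedback inhibitor of EGF receptor Errfi1 (0.28). Cish stood at 1.76, 1.12 and 0.16 at 1, 2 and 4 h, where the brighter Gadd45b probe stood at 1.62, 0.98 and 0.31. The second Gadd45b probe, at 1.09, 0.68 and 0.22, was not used in this search, so these neighbours hold for the brighter probe. Within a distance of 0.5 lay 2 genes for Ier3, 8 for Gadd45b and 79 for Gadd45g. Few probes have ratios far from 0, so such counts fall with the size of a gene's ratios and are not a trait of the gene. Nearest to Ier3 were the G-protein regulator Rgs16 (0.44) and the growth factor Csf2 (0.47), followed by the adhesion molecule Vcam1 (0.53). For Gadd45g, the lowered receptor kinase inhibitor Spry1 (0.086), the neurotrophin Bdnf (0.10) and the G-protein regulator Rgs4 (0.13) lay nearest. Spry1 stood at -0.52, -0.70 and -0.49, and Gadd45g at -0.46, -0.77 and -0.48.

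Related stress and signalling lists were counted in the same mean response. For scale, 10.8% of all 22213 genes by their brightest probe rose in the mean response and 11.1% fell, and their median log2 ratios were 0.0033, 0.0031 and 0.0027 at 1, 2 and 4 h. In the JNK and p38 cascade 5 of 14 measured genes rose and 2 fell, with medians of 0.049, 0.052 and 0.095. The p38 activator Map2k3 rose by 0.38 (limma adjusted p = 0.000595), and the p38-activated kinases Mapkapk2 and Mapkapk3 by 0.28 and 0.23. Map2k7, the kinase bound by Gadd45b, rose by 0.16, while the JNK gene Mapk8 fell by 0.099 and Map3k1 by 0.095. These falls passed in 8 and 7 of 13 alternatives. Without replicate 2 Map3k1 was -0.040 (limma adjusted p = 0.361), and the Mapk8 call ended without replicate 1 (limma adjusted p = 0.109). Map3k4, the common Gadd45 partner, was at -0.053 and did not pass (limma adjusted p = 0.388).

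**Figure D4:**
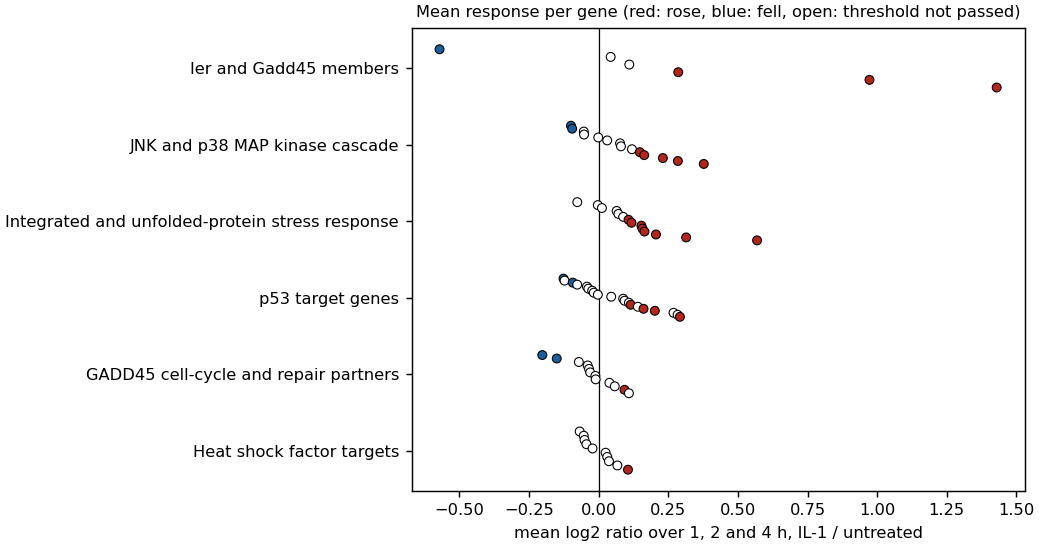
Mean log2 ratio of treated over untreated over 1, 2 and 4 h (horizontal axis) for each measured gene of the Ier and Gadd45 group and of 5 related lists; red genes rose, blue genes fell and open ones did not pass the limma threshold. Ier3 at 1.43, Gadd45b at 0.97 and Gadd45g at -0.57 are the members farthest from 0, and Hmox1 at 0.57 is the highest list gene.

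Of the stress-response genes tied to ATF4 and unfolded proteins, 8 of 14 rose and 0 fell, with medians of 0.12, 0.14 and 0.089. Sesn2, Asns, Chac1, Dnajb9, Ddit4 and Trib3 did not pass. Hmox1, the heme-degrading enzyme, rose by 0.57 (limma adjusted p = 0.00608) and had a rising slope, its ratios being 0.33, 0.55 and 0.82 at 1, 2 and 4 h (slope limma adjusted p = 0.0293). The slope call ended with an offset of 16, with processed signals and with limma's trended robust variance, where 0 probes had a rising slope. The mean of Hmox1 passed in 12 of 13 alternatives and missed with processed signals (0.59, limma adjusted p = 0.0596). Ppp1r15a (Gadd34), a phosphatase subunit that ends the translation block, rose by 0.31, the transcription factor Atf4 by 0.21, and Ddit3 (Gadd153, CHOP) by 0.15. The count of 8 rises became 2 with processed signals, 3 without the 2 h sample and 10 with no background correction. It also depended on the scaling, with 2 up and 3 down under median centring. There Hmox1 and Ppp1r15a passed at 0.42 and 0.23 and Atf4 did not, at 0.077 (limma adjusted p = 0.0988). Without replicate 2 Ppp1r15a was 0.14, still past the threshold, and Atf4 was 0.079, no longer past it (limma adjusted p = 0.0811). In the p53 list, which holds the p53 gene (Trp53) besides its targets, 4 of 20 rose and 2 fell, with medians of 0.058, 0.023 and 0.033. Plk2 rose by 0.29, the p53 ubiquitin ligase Mdm2 by 0.20 and the nuclease gene Aen by 0.16, while the death effector Bax fell by 0.13 and the ribonucleotide reductase subunit Rrm2b by 0.093. Of 13 alternatives, Plk2 passed in 12, Aen and Bax in 10, Mdm2 in 7 and Rrm2b in 6. Without replicate 1 Bax was -0.048 (limma adjusted p = 0.272). Under median centring 1 gene of the p53 list rose and 4 fell, and Mdm2 and Aen, at 0.074 and 0.018, did not pass. Cdkn1a, the p21 inhibitor, was at 0.24, 0.072 and 0.0098 at 1, 2 and 4 h and did not pass in the mean (limma adjusted p = 0.145). At 1 h Btg2, Bbc3 and Plk3 were the highest of this list, at 0.65, 0.59 and 0.40, and Trp53inp1 the lowest, at -0.17. Btg2, Bbc3 and Plk3 did not pass in the mean (limma adjusted p = 0.142, 0.0741 and 0.262), nor did Trp53inp1 (0.702).

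Of 12 cell cycle and repair partners of Gadd45 proteins 1 rose and 2 fell, with medians of -0.019, -0.027 and 0.0050. Under median centring 0 rose and 7 fell, with medians of -0.16, -0.21 and -0.12. Pcna and Cdk1 had mean log2 ratios of -0.20 and -0.15, and both passed downward (limma adjusted p = 0.00302 and 0.00750). The direction of Pcna depended on the dye orientation. With treated RNA in Cy5 only (without replicate 2) Pcna passed upward at 0.11 (limma adjusted p = 0.0332). With treated RNA in Cy3 only (without replicate 1) it passed downward at -0.52 (limma adjusted p = 0.000525), and the cause was not tested. Tdg, a DNA glycosylase, rose by 0.093 and turned to -0.019 with median centring and to -0.099 without replicate 1. The heat shock list holds Hsf1, the factor regulated by Ier5, besides targets of that factor. In this list 1 of 10 rose (the chaperone cofactor Bag3, 0.11) and 0 fell, with medians of 0.047, 0.0034 and -0.017. Under median centring Bag3 turned to -0.047 and 0 rose and 7 fell.

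**Figure D5:**
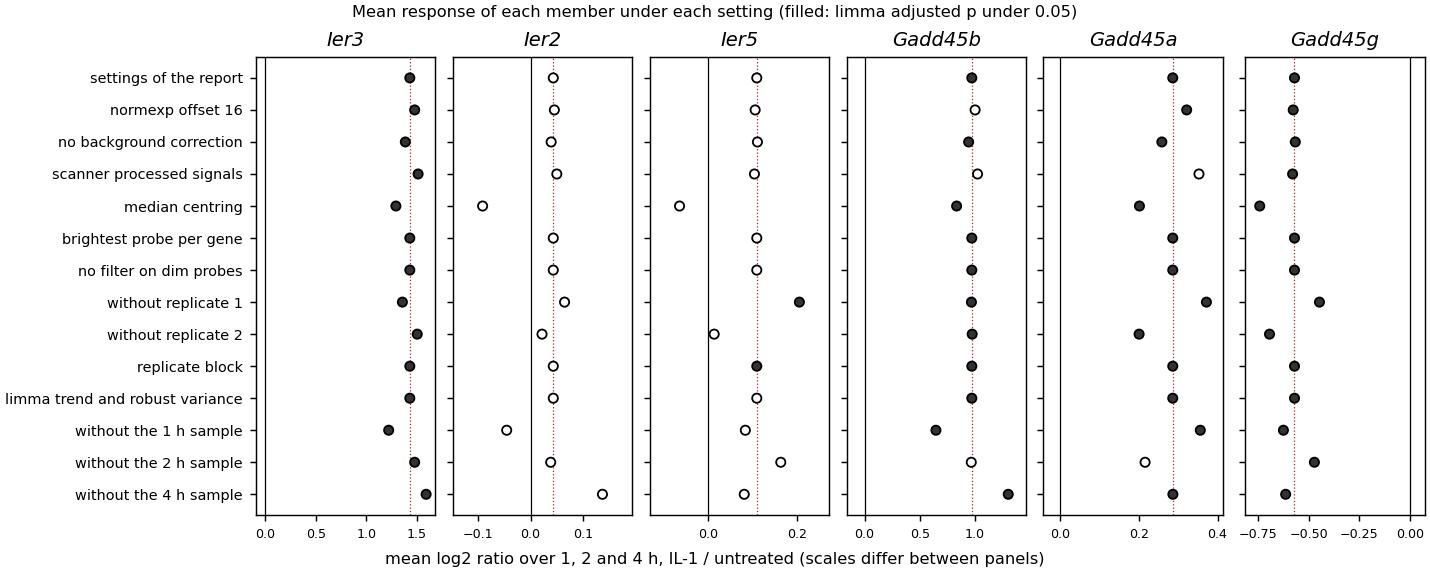
Mean log2 ratio of treated over untreated over 1, 2 and 4 h for the brightest probe of each of the 6 genes under the settings used and 13 others (rows); filled points passed the limma threshold, the red dotted line marks the value used, and scales differ between panels. Ier3 lies between 1.22 and 1.59 and Gadd45g between -0.74 and -0.45 in all of these, with each value past the threshold, while Ier2 and Ier5 cross 0.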

How the data were processed

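Members and lists were chosen with earlier results of these data known. Total RNA was labelled with Cy5 or Cy3 for 2-colour Agilent arrays, per the labels' protocols. Spots were read with Feature Extraction 7.5.1, and the intensity columns the authors deposited hold the mean and local background of each spot; the processed intensity columns were spatially detrended and dye-normalized, per the file headers. The deposited value table holds log2 ratios, and each column matches, for 100% of spots (tolerance 0.001), the treated over untreated ratio of its dye-swap partner array rather than its own. Exchanged table columns would leave means over orientations as they are, whereas exchanged scanner files would turn each sign given here. In the labelled direction the NF-kB target Nfkbia stood at 3.02, 2.65 and 1.87 at 1, 2 and 4 h. The chemokine Cxcl1 stood at 6.21, 5.49 and 4.84, and turned signs would make both lower in treated cells. Column medians were -0.026 to -0.032 in replicate 1 and 0.026 to 0.031 in replicate 2.

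Background (normexp, offset 50) and dye (loess) were corrected in limma 3.58.1 (R 4.3.3), control spots having weight 0 and outlier spots being left out. The 30640 probes flagged well above background on all arrays of 1 or more conditions were kept, less 57 with missing values. Arrays had median Cy5 signals of 124.3 to 137.7 and median Cy3 signals of 121.8 to 127.5. Both orientations were averaged and 3 samples tested with lmFit and eBayes, two-sided, with Benjamini-Hochberg adjustment over 30583 probes at 0.05, against 0 (the mean response) and on log2 hours (the slope; 1 residual degree of freedom). The test against 0 leaves out the spread of the untreated cells, and as nothing names separate cultures, p-values may hold no spread between cultures. The 3 samples are the 3 times, so the SE and p-value of a mean response include the change between times. They are not a replicate error, and a gene whose ratio changes with time has a wider SE. The number of arrays limits the precision. The fits were tested on simulated data. Replicate numbers mark dye orientation per the labels, and deviations of same-numbered arrays correlated at 0.765 to 0.843. Every member was named with all its probes; the brightest stood for a gene. From each list up to 3 genes with the largest and 3 with the smallest called mean were named. Other list genes were named after their values were seen. They are Map2k7, Map3k4, Ddit3 and Cdkn1a, the genes of the ATF4 list that did not pass, and the p53-list genes highest or lowest at 1 h. The 3 nearest genes were named for Ier3, Gadd45b and Gadd45g. Names followed RefSeq accessions for 18714 kept probes.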

Additional observations from a re-analysis of the deposited data

Results flagged for a closer look

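The ratios of 2 genes differed between time points by the slope test. Ier3 had a slope of -0.369 per doubling of time, and its log2 ratio was 1.85 at 1 h and 1.11 at 4 h. Gadd45b had a slope of -0.656 on the brighter probe, with 1.62 at 1 h and 0.31 at 4 h, and of -0.433 on the second probe, with 1.09 at 1 h and 0.22 at 4 h. Each was lower at 4 h than at 1 h in both dye orientations. Whether the untreated RNA of all times was 1 extract is not stated, so a difference between untreated RNAs cannot be told apart from a slope.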

How the results depend on the processing

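Of 68 alternative values of the member and list counts, 56 stayed within 1.5 times the count reported, whatever the direction of the calls. Median centring is among these for the list genes but turned their balance, with 8 up and 24 down, against 19 up and 6 down. With median centring 0 member probes passed the size rule at 1, 2 and 4 h. Ier3 at 1 h then read 2.58 with treated RNA in Cy5 and 0.83 in Cy3, with a mean of 1.70. With no background correction 0 passed at 4 h, and the cause was not tested in either case. Leaving out replicate 1 or 2 gave 3 at 1 h, 1 to 2 at 2 h, 1 at 4 h and 1 between 1 h and 4 h, 5 to 7 in the mean response, 2 to 3 slopes and 27 to 34 list genes. In the mean response 2 member probes passed with the scanner's processed signals and 2 without the 2 h sample, against 6, and of the list genes 7 and 8 passed, against 25. Ier3 and Gadd45g passed in all 13 alternatives (limma adjusted p from 8.26e-06 to 0.0422 and from 0.000106 to 0.0457). No slope passed for any of the 8 probes with an offset of 16, with processed signals or with limma's trended robust variance (0 in limma). In these settings 4, 4 and 3 of the 8 had an unadjusted limma p under 0.05. So did 2794, 2759 and 3199 of all 30583 kept probes. Over all alternatives slopes stayed at -0.38 to -0.35 for Ier3 and -0.68 to -0.63 for Gadd45b, with limma adjusted p up to 0.533. The lowest limma adjusted p, 1.72e-11 and 1.28e-39, came with median centring. They stem from fits with 1 residual degree of freedom and are not to be read as precision.

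The mean of Ier5 was -0.064 and that of the brighter Ier2 probe -0.092 with median centring, and this Ier2 mean was -0.046 without the 1 h sample. Without replicate 1 the slopes of Ier5 and of the dimmer Ier2 probe were -0.012 and 0.0021, and without replicate 2 they were 0.017 and -0.031. None of these passed; the cause was not tested. Over all kept probes 3216 rose and 3472 fell, against 1681 and 7453 with median centring, 1032 and 933 with processed signals, 927 and 861 without the 2 h sample, 4539 and 5901 without replicate 1 and 6268 and 5030 without replicate 2. Rising and declining slopes, 60 and 74, were 0 and 0 in the 3 settings above, 278 and 212 with median centring, 235 and 279 with no background correction, 17 and 30 without replicate 1, 8 and 13 without replicate 2 and 36 and 47 with 1 probe per gene. The size rule passed 52 probes upward at 1 h, 79 with processed signals, 79 without replicate 1 and 25 with median centring. The list counts under alternatives were added after seeing the data. The replicate block changed no other call of a member.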
